A study of Mus musculus with 4 samples.

Results

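Innate immune sensing begins with pattern receptors. Toll-like receptors recognise microbial products at the cell surface or inside endosomes and pass the signal through the adaptor MyD88, the IRAK kinases and the ubiquitin ligase TRAF6 to the IκB kinase (IKK) complex. IKK releases NF-κB, a family of dimeric transcription factors held in the cytoplasm by IκB proteins, and NF-κB in turn drives its own inhibitors and inflammatory cytokines. Inflammasomes are cytosolic sensor complexes that activate caspase-1, which matures IL-1β and IL-18 and cleaves gasdermin D. Haematopoietic progenitors and their myeloid progeny carry much of this machinery, and innate signalling through it has been studied in myelodysplastic disease.

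This report covers 50 mouse genes of that system, taken by symbol and arranged by role: 12 pattern receptors and co-receptors, 10 adaptors and kinases, 3 IKK subunits, 5 NF-κB subunits, 5 inhibitors, 6 inflammasome genes, and 9 genes for cytokines, IL-1 receptors and prostaglandin synthesis. Of these, 49 were found among the 28987 genes of the expression table. Tirap was not analysed here. Of the 49, 42 passed the filter on low values (at least 1 TPM in at least 2 libraries) and were tested.

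Transcripts were measured by RNA sequencing in bone marrow cells of C57BL/6 mice selected on c-Kit (CD117) beads, in 4 libraries. All 4 came from mice with a heterozygous partial tandem duplication of Mll (MllPTD/WT), both Runx1 alleles floxed (Runx1Flox/Flox) and Mx1-Cre, an interferon-inducible recombinase that acts in blood-forming and other cells. In 2 libraries (Hif1a-intact) that was the whole genotype. In the other 2 (Hif1a-null) both alleles of Hif-1α, the subunit of HIF-1 that is stabilised at low oxygen, were floxed as well. The sample titles call all 4 libraries Runx1null, and the Hif1a-null 2 also Hif1anull. The labels give no age, no Cre induction schedule and no statement that replicate libraries are from different animals. The p-values therefore reflect the spread among these libraries alone, which may be technical. There was no wild-type group, so levels against normal marrow cannot be given.

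Values are TPM, a transcript abundance that is scaled to the library total; they correct for transcript length and keep no read depth. Differences are Hif1a-null minus Hif1a-intact on the log2(TPM + 1) scale, which understates changes of low genes, and a gene was called at a limma adjusted p under 0.05 over all 11909 tested genes. Hif1a itself read 100 and 75.2 TPM in the intact pair and 98.8 and 113 TPM in the null pair (limma, adjusted p = 0.479). A gene total does not show whether the floxed part was lost, so the label was not checked by it. Runx1 read 73.6 and 76.6 TPM against 48.4 and 46.7 TPM (limma, adjusted p = 0.0636). Kit read 102 to 128 TPM in the 4 libraries. None of 7 progenitor markers was called (limma, 2 of 7 at an unadjusted p under 0.05, beside 23.2% of all tested genes). Among marker lists of other cells, 9 of 13 neutrophil, 9 of 12 B-lineage, 6 of 10 T and NK and 8 of 8 erythroid genes were called higher in Hif1a-null, though 7 B-lineage, 4 T and NK and 3 erythroid genes were tested only through that group. Of 7 megakaryocyte genes 5 were called higher, 1 of them tested only through that group. Of 9 stromal and endothelial genes 2 were called higher and 2 lower. Within the T and NK list Nkg7 went the other way without a call, at 177 and 284 TPM against 122 and 144 TPM. The T and NK list summed to 184 and 290 TPM in Hif1a-intact and 189 and 216 TPM in Hif1a-null, with overlapping groups. In bulk RNA, fewer cells of a type and less RNA per cell cannot be told apart.

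Most of the innate signalling genes were not called. Of the 42 tested members, 1 rose (Il1rn, the IL-1 receptor antagonist) and 1 fell (Nlrc4, a flagellin-responsive inflammasome component) in the Hif1a-null libraries. That is 4.76% of tested members, beside 7.27% of all tested genes called in either direction, 5.25% higher and 2.02% lower. At an unadjusted limma p under 0.05 the count was 17 of 42 members (40.5%), beside 23.2% of all tested genes. Members below 0 outnumbered those above, 26 to 16, and all tested genes tilted the same way, 6848 below to 5061 above. The median log2 difference of members was -0.13, beside -0.06 for all tested genes. Of the members below 0, 4 (Irak2, Map3k7, Nfkbiz and Tnfaip3) turned above it under median-ratio rescaling. In 11 members both Hif1a-null libraries lay above both Hif1a-intact libraries and in 20 they lay below, while 22.7% and 32.3% of all tested genes did so. The calls needed both Hif1a-null libraries: without replicate 1 or replicate 2 of that group no member was called (limma, 7 and 4 members at an unadjusted p under 0.05), and 19 and 0 of all genes were.

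**Figure D1:**
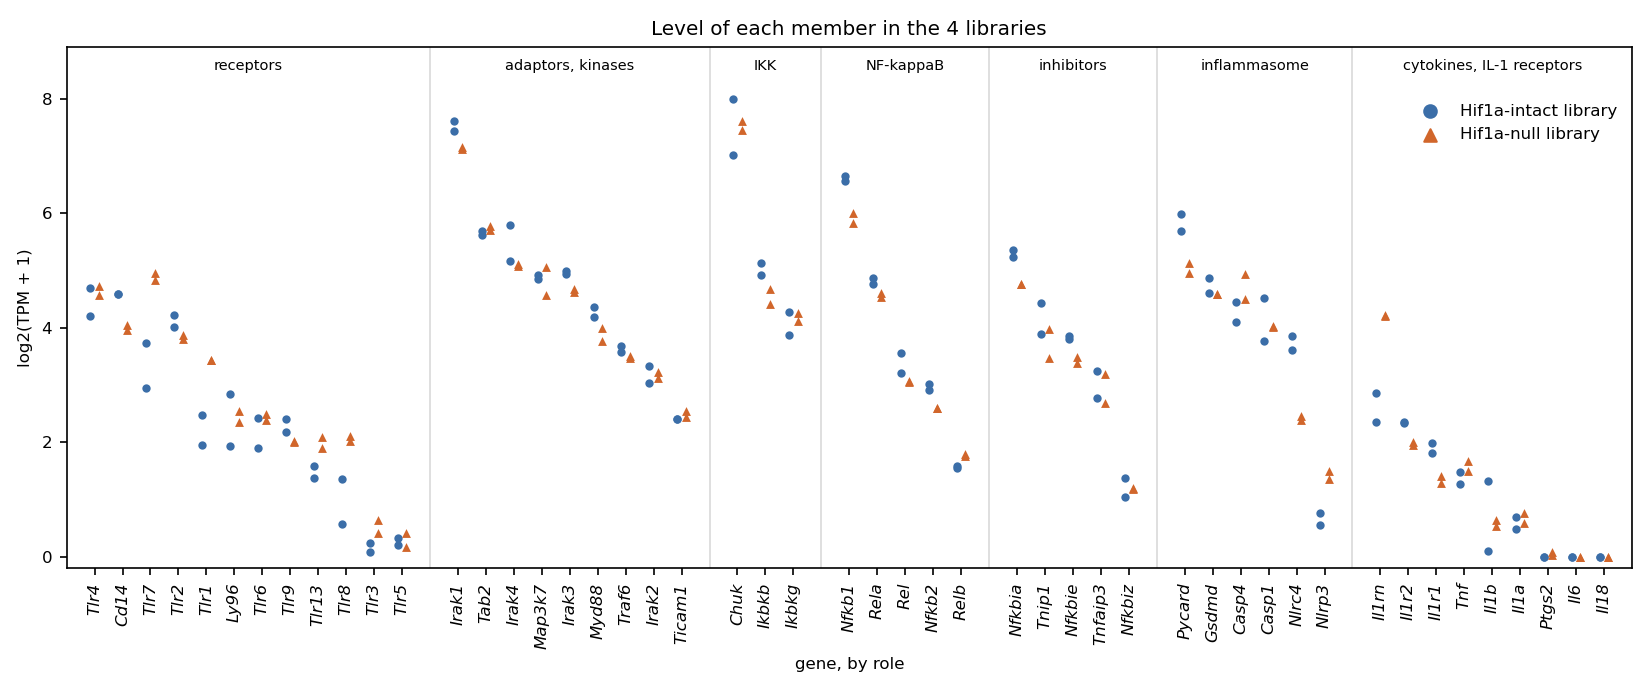
Level of 49 members on the log2(TPM + 1) scale, grouped by role and ordered within a role by mean level, with circles for the 2 Hif1a-intact and triangles for the 2 Hif1a-null libraries. Irak1, Chuk and Nfkb1 stand highest, Il18 and Il6 lie at 0, and the groups are clearly apart for Il1rn and Nlrc4.

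**Figure D2:**
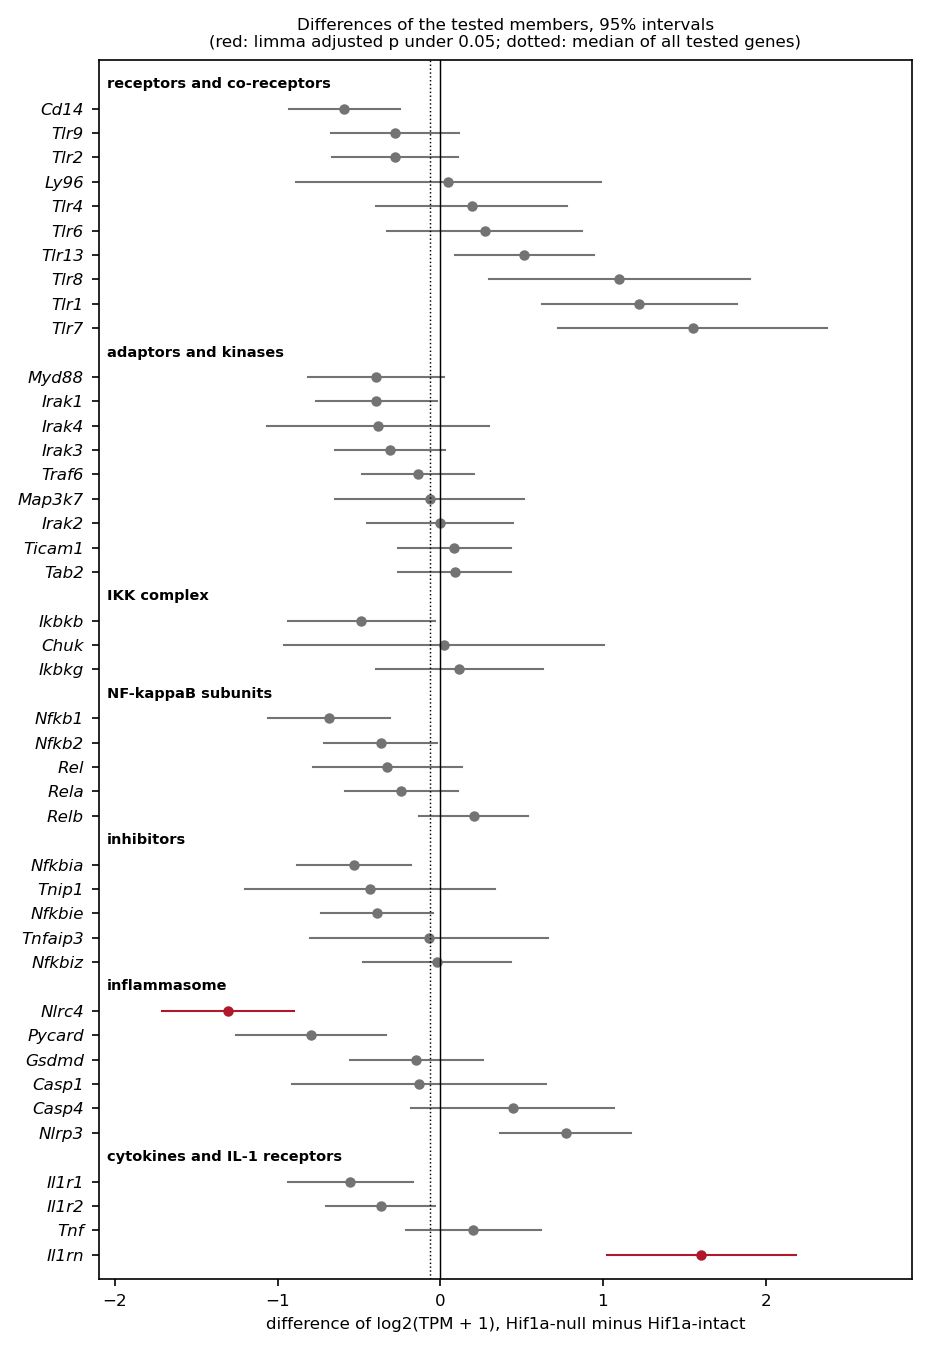
Log2 difference of the 42 tested members (points) with 95% intervals from the limma fit (bars), Hif1a-null minus Hif1a-intact. Nlrc4 and Il1rn, in red, passed the threshold, and the dotted line marks the median of all tested genes (-0.06). The intervals of Tlr7, Tlr1, Nfkb1, Pycard and further members exclude 0 without passing.

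The inflammasome genes held the one member that fell. Nlrc4 (ENSMUSG00000039193, GRCm38 chromosome 17, 74425438 to 74459142, minus strand) encodes the adaptor-like NLR protein that assembles with NAIP sensors of flagellin and secretion-system proteins. It read 13.4 and 11.2 TPM in the intact pair and 4.52 and 4.25 TPM in the null pair. Both Hif1a-null libraries were low and the groups stood well apart, with means 2.81-fold lower in Hif1a-null. The log2 difference was -1.30 (SE 0.15, 95% interval -1.71 to -0.90, limma adjusted p = 0.0211). A transcript of Nlrc4 with 4729 bases aligns over 102 bases to Gm11032, a predicted 102-base transcript that read 490, 111, 482 and 439 TPM. The sum of both had a log2 difference of 0.90 (limma, adjusted p = 0.530). Gm11032 made up most of that sum, so its sign cannot show the direction of Nlrc4. How reads were split between the 2 genes was not tested. The sensors that work with NLRC4 were not called: Naip2, Naip5 and Naip6 together read 38.3 and 30.8 TPM against 33.1 and 32.4 TPM, with overlapping groups.

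The 250 bases upstream of the RefSeq start of Nlrc4 are shown because it is the member that fell, and because Runx1 is floxed in all 4 libraries. The window lies at chr17:74459109-74459358 (GRCm38.p6, minus strand, written 5′ to 3′ on the gene's strand), and capitals mark matches to TGTGGT, a core of RUNX sites, on either strand.
Nlrc4: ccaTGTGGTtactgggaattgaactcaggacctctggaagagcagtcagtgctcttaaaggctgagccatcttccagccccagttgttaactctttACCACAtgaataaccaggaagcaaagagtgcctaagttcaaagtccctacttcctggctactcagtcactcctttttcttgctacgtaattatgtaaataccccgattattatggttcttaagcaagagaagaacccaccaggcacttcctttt
The 2 matches begin 247 and 154 bases before the start. Of 32851 such windows in the RefSeq set, 14.0% hold at least 1 match to TGTGGT. The window held no match to GGGNNNNNCC, a loose NF-κB pattern found in 45.8% of windows, or to ACGTG, the core of HIF sites found in 16.6%.

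None of the other inflammasome genes passed. Pycard, which encodes the adaptor ASC that links sensors to caspase-1, was the highest of the 6 and read 62.2 and 50.6 TPM against 34.0 and 29.9 TPM. Its groups did not overlap, with a log2 difference of -0.80 (95% interval -1.26 to -0.33, limma adjusted p = 0.0805). Nlrp3, the sensor of membrane damage and potassium loss, read 0.687 and 0.4715 TPM against 1.83 and 1.56 TPM. Its test rests on the filter: the intact pair lay under 1 TPM, and it was tested only through the null pair (limma, adjusted p = 0.0634). The level of Nlrc4 over that of Nlrp3 was 19.6 and 23.8 in the intact pair and 2.47 and 2.72 in the null pair. This ratio sets the member that fell over one that was higher. Its separation follows from the values above, and it was not tested.

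The effector genes downstream were not called. Casp1, the protease that matures IL-1β, read 22.0 and 12.6 TPM against 15.4 and 15.02 TPM, and the groups overlapped. Casp4 (the mouse caspase-11 gene), which senses cytosolic lipopolysaccharide, read 20.7 and 16.1 TPM against 21.5 and 29.6 TPM (limma, adjusted p = 0.344). Gsdmd, the pore-forming substrate of both, read 28.1 and 23.4 TPM against 23.1 and 23.1 TPM, with a 95% interval of the log2 difference from -0.55 to 0.26. Over the layer, 1 of 6 tested members fell and 0 rose, beside 2.02% lower and 5.25% higher among all tested genes. The median log2 difference was -0.14. For 3 of the 6 the unadjusted limma p was under 0.05, beside 23.2% of all tested genes.

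Monocyte and macrophage markers moved in both directions beside Nlrc4 and Pycard. Of 18 such markers 16 were tested, 2 were called higher (Ccr2 and Mrc1) and 2 lower (Adgre1 and Cd68). Mrc1 was 1 of 4 tested only through the null pair, so the filter set its direction. The list summed to 689 to 739 TPM in Hif1a-intact and 596 to 616 TPM in Hif1a-null. No marker of that list was at 0 in all libraries. Their part in the Nlrc4 result was not tested.

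Among cytokine genes and IL-1 receptors, Il1rn rose. Il1rn (ENSMUSG00000026981, GRCm38 chromosome 2, 24336853 to 24351494, plus strand) encodes a protein that occupies the IL-1 receptor without signalling and so blocks IL-1α and IL-1β. It read 4.07 and 6.22 TPM in the intact pair and 17.3 and 17.5 TPM in the null pair. Both Hif1a-null libraries were high, 3.39-fold by the means. The log2 difference was 1.61 (SE 0.21, 95% interval 1.02 to 2.19, limma adjusted p = 0.0287), and no near-identical or overlapping annotated gene was found. The call was lost when genes with any value above 0 were tested (limma, adjusted p = 0.0714), with the same log2 difference.

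The cytokines that it blocks were barely detected. Il1a read 0.625 and 0.394 TPM against 0.687 and 0.504 TPM, and Il1b 1.49 and 0.0725 TPM against 0.452 and 0.557 TPM. Il18 and Il6 were listed at 0 in all 4 libraries, and Ptgs2, the inducible prostaglandin synthase gene, at 0 in the intact pair and at 0.0221 and 0.0545 TPM in the null pair. These 5 genes were not tested, and a listed 0 can be a failed estimate. Tnf, which encodes the cytokine TNF, read 1.78 and 1.42 TPM against 2.18 and 1.81 TPM (limma, adjusted p = 0.507).

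Transcripts of the IL-1 receptors were lower on average, in the opposite direction to their antagonist, and were not called. Il1r1, the signalling receptor, read 2.95 and 2.49 TPM against 1.43 and 1.64 TPM (log2 difference -0.55, 95% interval -0.94 to -0.16, limma adjusted p = 0.119). Il1r2, a decoy receptor that binds IL-1 without signalling, read 4.06 and 4.10 TPM against 3.01 and 2.87 TPM (log2 difference -0.37, limma adjusted p = 0.187). In both genes the groups did not overlap, the Hif1a-null libraries being the lower, as was so for 32.3% of all tested genes. Within each library Il1rn stood at 1.38 and 2.50 times Il1r1 in Hif1a-intact and at 12.1 and 10.7 times in Hif1a-null. For a within-library ratio of 2 against 2 libraries the smallest two-sided exact permutation p is 0.333, so these ratios are values without a test. Of 4 tested genes for cytokines and IL-1 receptors, 1 was called higher and 0 lower, beside 5.25% and 2.02% of all tested genes. For 3 of these 4 the unadjusted limma p was under 0.05, beside 23.2% of all tested genes.

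Il1rn has several RefSeq starts, and windows upstream of the 2 that held an NF-κB pattern are shown because it is the member that rose. They lie at chr2:24336610-24336859 and chr2:24345121-24345370 (GRCm38.p6, plus strand, 5′ to 3′), and capitals mark matches to GGGNNNNNCC on either strand.
Il1rn upstream start: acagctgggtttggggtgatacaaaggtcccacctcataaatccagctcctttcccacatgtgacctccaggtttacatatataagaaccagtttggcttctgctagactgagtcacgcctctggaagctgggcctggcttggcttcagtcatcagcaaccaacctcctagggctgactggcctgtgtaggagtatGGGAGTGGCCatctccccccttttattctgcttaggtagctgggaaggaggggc
Il1rn downstream start: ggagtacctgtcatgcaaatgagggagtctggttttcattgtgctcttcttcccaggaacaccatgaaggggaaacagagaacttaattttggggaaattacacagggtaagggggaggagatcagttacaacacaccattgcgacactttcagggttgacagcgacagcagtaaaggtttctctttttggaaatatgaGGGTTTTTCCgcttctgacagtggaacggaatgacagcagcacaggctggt
The matches begin 54 and 51 bases before their starts, and neither window matched ACGTG or TGTGGT. Another Il1rn window, at chr2:24345041-24345290, matched none of these patterns and is not shown. Windows were found for 40 members, 56 windows in all, of which 34 matched GGGNNNNNCC, 12 ACGTG and 10 TGTGGT. Of all 32851 windows in the RefSeq set, 45.8%, 16.6% and 14.0% did so. A match describes letters in a window and says nothing of binding.

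Another IL-1 family gene close to Il1rn was also called. Il1f9 (also named Il36g), which encodes the cytokine IL-36γ, lies 143 kb from Il1rn on chromosome 2 at 24186476 to 24193568. It read 4.09 and 3.58 TPM against 38.2 and 34.1 TPM, a 9.43-fold rise with a log2 difference of 2.94 (SE 0.14, limma adjusted p = 0.00503). Without either Hif1a-null library its adjusted p was 0.0711 and 0.0796. Il1f8, Il1f6, Il1f5 and Il1f10, which lie between or beside the pair, were listed at 0 in all 4 libraries; they were looked up after the values of Il1f9 were seen. In the IL-1 receptor cluster on chromosome 1, Il1rl1, the receptor for IL-33, read 0.736 and 0.574 TPM against 6.92 and 8.13 TPM (log2 difference 2.36, limma adjusted p = 0.00706). The intact pair lay under 1 TPM, so the filter fixed its direction. Il1rap, the shared accessory receptor, read 7.94 and 9.37 TPM against 9.21 and 9.39 TPM.

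**Figure D3:**
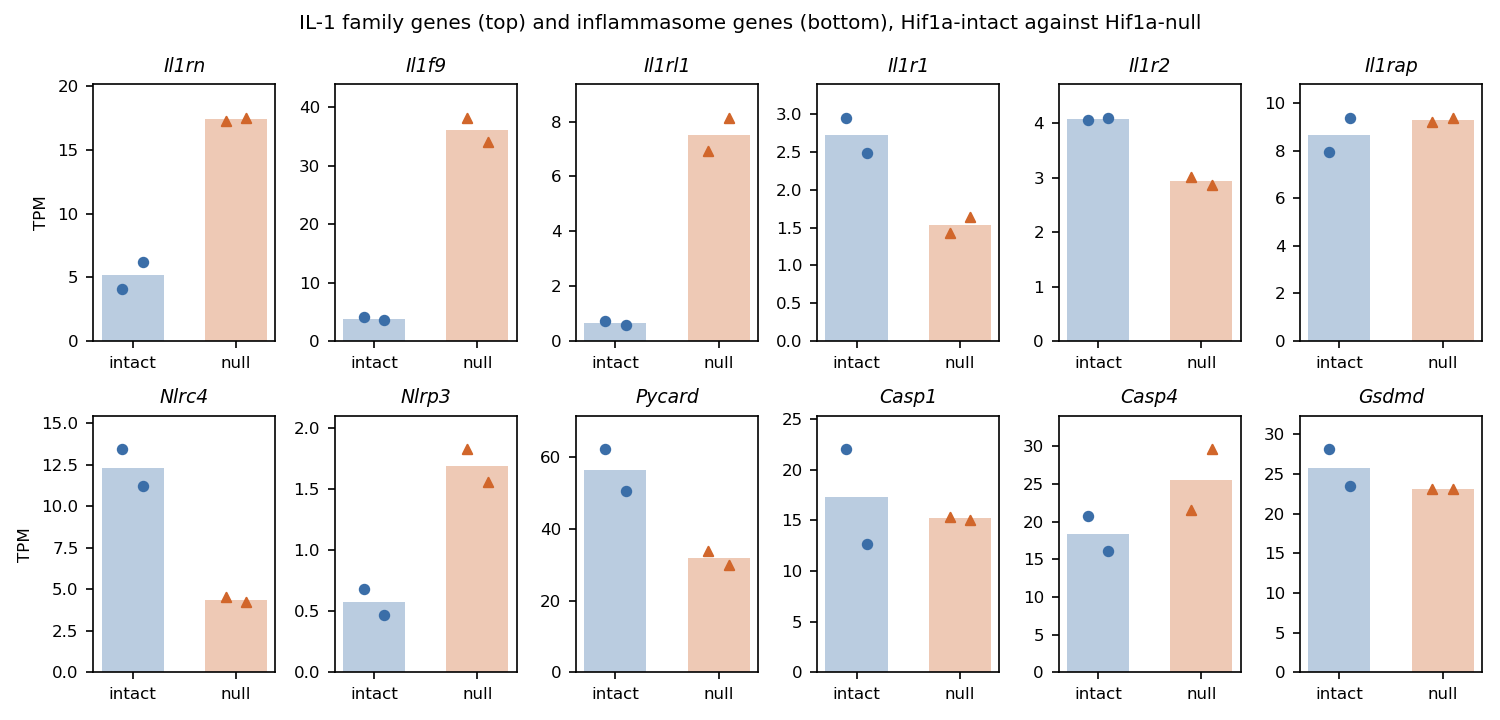
TPM of 6 IL-1 family genes (top) and 6 inflammasome genes (bottom), with points for libraries and bars for group means. Each panel has its own TPM scale. Il1rn, Il1f9 and Il1rl1 are higher in both Hif1a-null libraries, while Il1r1 and Il1r2 (not called) are lower. In those libraries Nlrc4 is lower, at 4.52 and 4.25 TPM, and Nlrp3 (not called) higher, at 1.83 and 1.56 TPM. Nlrp3 and Il1rl1 were tested only through the null pair.

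Neutrophil transcripts rose in the same libraries as Il1rn and Il1f9. Of 13 neutrophil markers, 9 were called higher and 0 lower. In log2 difference 11 lay above 0 and 2 (Camp and Csf3r) below it. The list summed to 51987 to 58192 TPM in Hif1a-intact and 100016 to 103070 TPM in Hif1a-null, with no marker at 0. Of these sums Chil3 alone gave 30122 and 27349 TPM against 64447 and 62291 TPM. Beside Il1rl1, 2 of 5 tested mast cell and basophil markers fell (Cpa3 and Gata2) and 0 rose, with Prss34, Cma1 and Tpsb2 at 0 in all libraries. The 9 listed genes summed to 432 to 659 TPM against 149.9 to 150.04 TPM, of which Cpa3 alone gave 526 and 289 TPM against 42.3 and 42.4 TPM. Ms4a2 was not called and read 14.7 and 8.82 TPM against 13.8 and 12.8 TPM. The part of these cells in the Il1rn, Il1f9 and Il1rl1 results was not tested.

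The receptor layer showed its highest differences in Toll-like receptors 7, 1 and 8, none of them called. Tlr7, an endosomal receptor for single-stranded RNA, read 12.3 and 6.66 TPM against 29.8 and 27.5 TPM. Both Hif1a-null libraries were high, and the log2 difference was 1.55 (95% interval 0.73 to 2.38, limma adjusted p = 0.0659). Tlr8, its neighbour 40.6 kb away on the X chromosome, read 1.545 and 0.4885 TPM against 3.045 and 3.31 TPM (log2 difference 1.10, limma adjusted p = 0.127). Tlr1, which pairs with TLR2 to sense triacylated lipopeptides, read 4.57 and 2.85 TPM against 9.77 and 9.87 TPM (log2 difference 1.22, 95% interval 0.63 to 1.82, limma adjusted p = 0.0555). The Hif1a-intact libraries differed from each other in all 3 genes, replicate 2 being the lower. Without replicate 1 of that group Tlr1, Tlr7 and Tlr8 passed (limma, adjusted p = 0.0289, 0.0244 and 0.0310), and without replicate 2 Tlr1 and Tlr7 passed (0.0490 and 0.0473). Those fits leave 1 Hif1a-intact library, take the spread from the closer Hif1a-null pair and assume that the lone library varies like it.

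The lipopolysaccharide receptor complex was not called. Tlr4, the lipopolysaccharide receptor, read 24.95 and 17.5 TPM against 25.5 and 22.6 TPM, with overlapping groups. Its partner gene Ly96 (MD-2) read 6.201 and 2.82 TPM against 4.08 and 4.802 TPM, also overlapping. Cd14, the co-receptor that delivers lipopolysaccharide to TLR4, read 23.1 and 23.2 TPM against 14.5 and 15.5 TPM. It was low in both Hif1a-null libraries (log2 difference -0.59, 95% interval -0.93 to -0.25, limma adjusted p = 0.0806). Cd14 stood at 0.925 and 1.33 times Tlr4 in Hif1a-intact and at 0.570 and 0.687 times in Hif1a-null.

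The remaining receptors were not called or not tested. Tlr2 read 17.6 and 15.2 TPM against 12.99 and 13.7 TPM (limma, adjusted p = 0.344), and Tlr6, its partner for diacylated lipopeptides, 4.36 and 2.73 TPM against 4.21 and 4.596 TPM. Tlr9, the CpG DNA receptor, read 4.28 and 3.54 TPM against 3.08 and 2.998 TPM (limma, adjusted p = 0.347). Tlr13, a receptor for bacterial ribosomal RNA, read 1.99 and 1.59 TPM against 2.72 and 3.27 TPM (limma, adjusted p = 0.159). Tlr3, for double-stranded RNA, read 0.0635 to 0.564 TPM and Tlr5, for flagellin, 0.126 to 0.326 TPM over the 4 libraries, and neither was tested. In the layer 0 of 10 tested members were called by limma, and the median log2 difference was 0.23. An unadjusted limma p under 0.05 was found for 5, beside 23.2% of all tested genes.

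The make-up of the receptor transcripts differed between the groups, mainly in Tlr7. Endosomal receptors (Tlr3, Tlr7, Tlr8, Tlr9 and Tlr13) summed to 20.2 and 12.5 TPM against 39.2 and 37.4 TPM. Cell-surface receptors (Tlr1, Tlr2, Tlr4, Tlr5 and Tlr6) summed to 51.8 and 38.4 TPM against 52.6 and 51.1 TPM. The endosomal share was thus 28.1% and 24.5% in Hif1a-intact and 42.7% and 42.3% in Hif1a-null, and without Tlr7 it was 13.2% and 13.1% against 15.2% and 16.3%. With Tlr11 and Tlr12, further endosomal receptors outside the 50 genes, the share was 35.9% and 35.3% against 43.7% and 43.6%. This split by location was made after the values were seen and was not tested.

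**Figure D4:**
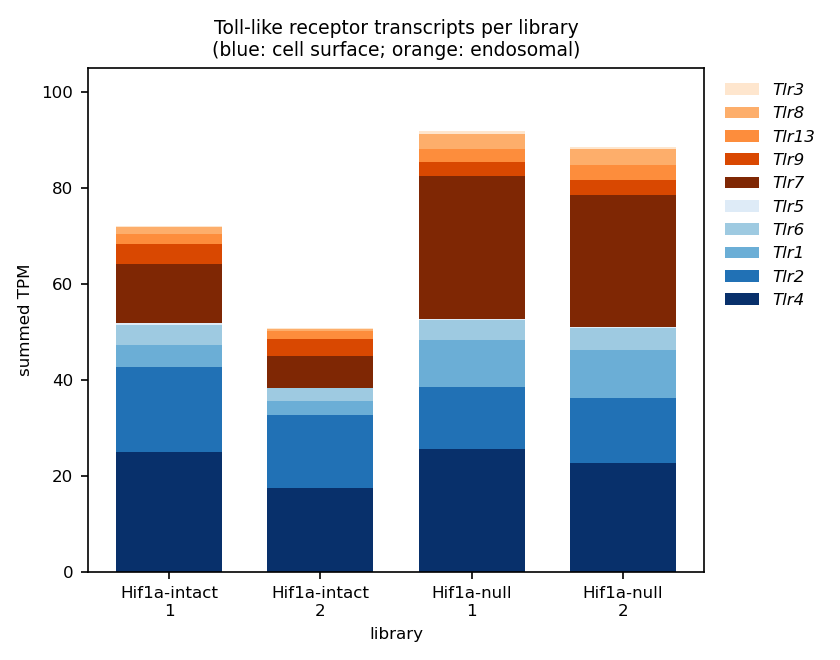
Summed TPM of 10 Toll-like receptors in each library, with cell-surface receptors in blue and endosomal receptors in orange. Tlr7 takes 17.1% and 13.1% of the sum in the Hif1a-intact and 32.5% and 31.1% in the Hif1a-null libraries.

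Dendritic cell markers, among them genes of plasmacytoid dendritic cells, stood beside Tlr7. Of 10 markers 7 were tested and 3 were called higher (Siglech, Clec9a and Zbtb46). Bst2, Irf8, Flt3 and Cd209a were tested, were not called and had overlapping groups. Of these, Irf8 and Cd209a lay below 0 in log2 difference. Clec9a and Zbtb46 were under 1 TPM in the intact pair and tested only through the null pair, which fixed their direction, while Siglech read 1.72 and 1.41 TPM against 15.3 and 14.6 TPM. The list summed to 107 to 122 TPM in Hif1a-intact and 135 to 147 TPM in Hif1a-null, and no marker was at 0 in all libraries. B-lineage markers summed to 18.7 to 22.1 TPM against 239 to 242 TPM, of which Dntt alone gave 9.41 and 10.2 TPM against 189 and 188 TPM. Of 10 tested B-lineage genes 7 were tested only through the null pair, and Cd79b was not called. The part of either marker list in the Tlr7 and Tlr1 values was not tested.

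No adaptor or kinase was called, and 7 of 9 lay below 0, beside 6848 of all 11909 tested genes. Under median-ratio and quantile scaling 5 of 9 did so, as Irak2 and Map3k7 turned above 0. Irak1, the kinase recruited after IRAK4 acts, was the highest at 172 and 195 TPM against 138 and 141 TPM (log2 difference -0.39, 95% interval -0.76 to -0.02, limma adjusted p = 0.198). Myd88, the adaptor of nearly all Toll-like receptors and of the IL-1 receptor, read 19.5 and 17.2 TPM against 14.8 and 12.7 TPM (log2 difference -0.39, limma adjusted p = 0.235). Irak3, an inhibitory member of the IRAK family, read 29.5 and 30.7 TPM against 24.6 and 23.6 TPM (limma, adjusted p = 0.246). In these 3 genes the Hif1a-null libraries were the lower, and the groups did not overlap, as was so for 32.3% of all tested genes.

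Irak4, the initiating kinase, read 34.8 and 54.6 TPM in the intact pair, so 1 library stood apart, and 33.4 and 32.9 TPM in the null pair (limma, adjusted p = 0.448). Traf6 read 11.8 and 10.96 TPM against 10.4 and 10.1 TPM, with a 95% interval of the log2 difference from -0.48 to 0.21. Tab2, a ubiquitin-binding partner of the kinase TAK1, read 50.6 and 48.1 TPM against 54.0 and 51.0 TPM. Map3k7, which encodes TAK1, read 29.1 and 27.8 TPM against 32.5 and 22.6 TPM, and Irak2, a kinase of sustained signalling, 9.05 and 7.13 TPM against 8.35 and 7.69 TPM, both with overlapping groups. Ticam1, the adaptor TRIF of TLR3 and TLR4, read 4.31 and 4.28 TPM against 4.86 and 4.401 TPM. In the layer 0 of 9 tested members were called by limma, and the median log2 difference was -0.14. An unadjusted limma p under 0.05 was found for 1, beside 23.2% of all tested genes.

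The IKK genes showed no call either (limma, 0 of 3, with 1 at an unadjusted p under 0.05, beside 23.2% of all tested genes). Ikbkb, the catalytic subunit of the canonical pathway, read 34.2 and 29.3 TPM against 24.4 and 20.4 TPM (log2 difference -0.48, limma adjusted p = 0.195). Ikbkg, the scaffold NEMO, read 18.3 and 13.6 TPM against 16.4 and 18.1 TPM. Chuk, which encodes IKKα, read 128 and 253 TPM in the intact pair alone, a spread that spans its Hif1a-null values of 173 and 194 TPM. Ikbkg overlaps G6pdx on the other strand, so with the strand setting unknown their reads may mix. The same limit applies, among others, to Irak4 with Twf1 (209 to 270 TPM), Irak3 with Tmbim4 (237 to 284 TPM) and Myd88 with Acaa1a.

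NF-κB subunit transcripts were lower on average in the Hif1a-null libraries for 4 of 5 genes, with none called. An unadjusted limma p under 0.05 was found for 2 of 5, beside 23.2% of all tested genes. Nfkb1, precursor of the p50 subunit, was the most abundant and read 98.7 and 93.2 TPM against 62.9 and 56.0 TPM. Both Hif1a-null libraries were low, with a log2 difference of -0.68 (95% interval -1.06 to -0.31, limma adjusted p = 0.0702). Rela, the transactivating partner of p50, read 28.0 and 26.2 TPM against 23.3 and 22.3 TPM (log2 difference -0.24, limma adjusted p = 0.362). Rel, the subunit prominent in lymphoid and myeloid cells, read 10.7 and 8.27 TPM against 7.39 and 7.24 TPM (limma, adjusted p = 0.348). Nfkb2, of the non-canonical pathway, read 6.50 and 7.08 TPM against 5.07 and 5.01 TPM (limma, adjusted p = 0.199). Its partner Relb read 2.001 and 1.94 TPM against 2.37 and 2.48 TPM, the single subunit with higher values in Hif1a-null (limma, adjusted p = 0.411). The groups did not overlap in these 5 genes, 1 higher and 4 lower in Hif1a-null, as was so for 22.7% and 32.3% of all tested genes. The median log2 difference was -0.32.

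The inhibitors all lay below 0 in log2 difference, as did 6848 of all 11909 tested genes. Nfkbiz and Tnfaip3 turned above 0 under median-ratio rescaling. Nfkbia, the IκBα that retains NF-κB in the cytoplasm, read 36.6 and 40.1 TPM against 26.2 and 26.2 TPM (log2 difference -0.53, 95% interval -0.88 to -0.18, limma adjusted p = 0.108). Nfkbie, the related IκBε, read 13.01 and 13.4 TPM against 9.48 and 10.2 TPM (limma, adjusted p = 0.181). Neither pair of groups overlapped, with Hif1a-null the lower, as was so for 32.3% of all tested genes. Tnip1 and Tnfaip3 (A20), which restrain the pathway through ubiquitin, read 13.8 and 20.5 against 10.1 and 14.7 TPM, and 5.81 and 8.454 against 8.12 and 5.40 TPM, with overlapping groups. Nfkbiz, a nuclear IκB protein, read 1.59 and 1.05 TPM against 1.29 and 1.26 TPM. Within each library Nfkb1 stood at 2.70 and 2.32 times Nfkbia in Hif1a-intact and at 2.40 and 2.14 times in Hif1a-null, with overlapping groups. In the layer 0 of 5 were called by limma, and the median log2 difference was -0.39. An unadjusted limma p under 0.05 was found for 2, beside 23.2% of all tested genes.

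Of 84 further genes of the pathway, 71 were tested. Of these 2 rose (Il1f9 and Il1rl1) and 2 fell, or 5.63%, beside the 7.27% of all tested genes. Il1rl1 was 1 of 2 tested only through the null pair, so the filter fixed its direction. Tlr12, an endosomal receptor for the parasite protein profilin, fell from 8.72 and 8.48 TPM to 1.42 and 1.81 TPM (5.33-fold, log2 difference -1.88, limma adjusted p = 0.00927). Without either Hif1a-null library its adjusted p was 0.135 and 0.140. Irf5, a transcription factor activated downstream of MyD88, fell from 18.2 and 20.6 TPM to 10.2 and 8.47 TPM (log2 difference -0.99, limma adjusted p = 0.0430). The call of Irf5 was lost in 10 of its 15 alternatives, over which the log2 difference ran from -1.11 to -0.15. The value nearest 0 was its sum with Tnpo3 (limma, adjusted p = 0.565), which overlaps it on the other strand. Tnpo3 read 70.8 to 82.2 TPM and made up most of that sum. The median log2 difference of the 71 was 0.01.

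Replicates differed more within the Hif1a-intact pair than within the Hif1a-null pair. Among the 42 tested members, 6 differed by over 1.5-fold between the Hif1a-intact libraries and 0 between the Hif1a-null libraries, with median absolute log2 differences of 0.22 and 0.097. Over all tested genes the shares over 1.5-fold were 18.2% and 6.12%.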

How the data were processed

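Total RNA of CD117-selected marrow cells was made into Illumina libraries, per the labels' protocols. The submitters' processing notes name kallisto and mm10, with no version, transcript set or strand setting. The authors deposited a table by Ensembl gene, read here as TPM because its columns sum to between 955562 and 963135. TPM keeps no counts, so depth is unknown, and count tests were not run.

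Symbols and positions came from GENCODE vM21 (GRCm38, also called mm10) for 27475 of 28987 genes, and Il36g was matched as Il1f9. A two-sided limma model (version 3.58.1, R 4.3.3, eBayes with trend and robust off) compared log2(TPM + 1) between the groups. Genes had to reach 1 TPM in 2 libraries or more, and p-values were adjusted by Benjamini-Hochberg over all genes tested. Intervals are 95%. The labels give no batch or pairing. The test was also tried on simulated data with known changes. Those data gave both groups the same spread, which the libraries here did not have, so that difference was not checked. A blastn 2.17.0 search of reference transcripts looked for near-identical copies (95% identity, 50% of the shorter transcript, 100 bases). Promoter windows came from RefSeq (GRCm38.p6), 250 bases upstream of each start. Figures used matplotlib 3.10.9 in Python 3.11.15.

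Members called, or apart by at least 0.5 on the log2 scale with no overlap, were described per library, the others by value, and from the other pathway genes those called, up to 6 a direction. The members, lists and tests were chosen with earlier results of these data known. Alternatives were pseudocounts, filters, rescalings, variance models, protein-coding genes only, copies summed and each library left out.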

Additional observations from a re-analysis of the deposited data

How the results depend on the processing

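Nlrc4 and Il1rn kept their direction and call with either other pseudocount, at least 5 TPM, a mean of at least 1 TPM, both rescalings, protein-coding genes only, both other variance models and either Hif1a-intact library left out. With no filter beyond a value above 0, 0 members were called higher (Il1rn lost), and 138 of all genes lower. With a pseudocount of 5, 399 of all genes were called higher, and with at least 5 TPM 332. Members called higher numbered 4 with median-ratio rescaling (adding Tlr1, Tlr7 and Nlrp3) and 2 with quantile normalization (adding Tlr1). With protein-coding genes only there were 3 (adding Tlr1 and Nlrp3). In the main fit Nlrp3 was tested only through the null pair. With 1 library left out, members called higher ran from 0 to 4 and lower from 0 to 1, and all genes called from 0 to 731 higher and 0 to 288 lower. The lowest counts came without a Hif1a-null library, where the spread rests on the Hif1a-intact pair and the lone library is assumed to vary like it; adjusted p was then 0.236 and 0.306 for Nlrc4 and 0.233 and 0.278 for Il1rn, at log2 differences of -1.34 and -1.27, and 1.61 and 1.60.

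Sign changes arose in uncalled genes near 0, apart from Nlrc4 summed with Gm11032 (0.90), a sum made up mostly of Gm11032. With median-ratio rescaling Irak2 was 0.078, Map3k7 0.022, Nfkbiz 0.034, Tnfaip3 0.0082 and Kmt2a 0.043. With quantile normalization Ly96 was -0.036, Irak2 0.0070, Map3k7 0.0074 and Tnf -0.032. With 1 library left out, the differences ran from -0.16 to 0.15 for Irak2, -0.46 to 0.51 for Chuk, -0.19 to 0.15 for Nfkbiz, -0.51 to 0.25 for Casp1, -0.053 to 0.44 for Tlr4, -0.41 to 0.51 for Ly96, -0.082 to 0.32 for Ikbkg, -0.32 to 0.18 for Tnfaip3, -0.32 to 0.19 for Map3k7 and -0.091 to 0.013 for Kmt2a. The cause of these changes was not tested. No paired analysis was possible because the groups share no replicate numbers in the labels.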
